A study of Mus musculus with 72 samples.

Results

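The nuclear-encoded genes of the mitochondrial respiratory chain and ATP synthase were followed in RAW264.7, a macrophage-like cell line from mouse whose labels give the BALB/c genotype. Members were the rows of the RNA table whose symbol begins with Ndufa, Ndufb, Ndufc, Ndufs, Ndufv, Uqcr, Cox4 to Cox8 or Atp5, or is Sdha, Sdhb, Sdhc or Sdhd, which gave 95 of 25124 rows. Of these, 85 encode subunits or their isoforms, 8 are complex I assembly factors (Ndufaf1 to Ndufaf8), and 2, Ndufa11b and Ndufb4c, are further gene copies. ATAC-seq peaks, regions of open chromatin cut by the Tn5 transposase, were members when annotated to such a gene within 50 kb of its start site, which gave 166 of 51983 peaks at 85 of the genes.

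Cells carried a lentiviral short hairpin RNA against NCOR (shNCOR), SMRT (shSMRT) or, as the control, GFP (shGFP), so every group was infected, and none was treated with a drug or cytokine. Both proteins are corepressors: they link histone deacetylases to nuclear receptors and other transcription factors, and NCOR is encoded by Ncor1. Each group had 3 RNA-seq and 3 ATAC-seq libraries. The other 54 samples of the series were not analysed here. The labels do not say whether a group was a clone or a pool, how many hairpins were used, or whether its libraries are separate cultures. The p-values therefore cover library-to-library spread only, and this may be technical.

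Complexes I (NADH dehydrogenase), III (cytochrome bc1) and IV (cytochrome c oxidase) pass electrons to oxygen and pump protons across the inner mitochondrial membrane. Complex II (succinate dehydrogenase) feeds electrons from the citric acid cycle. Complex V (ATP synthase) uses the proton gradient to make ATP. Most subunits are nuclear genes that are imported as proteins. A few core subunits of complexes I, III, IV and V are read from mitochondrial DNA and have no row in this RNA table. In macrophages, the balance between glycolysis and oxidative phosphorylation is known to differ with the mode of activation.

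The RNA libraries held 39.1 to 49.1 M reads (M for mega), of which 90.9 to 92.8% lay in the counted exons, and the ATAC libraries 6.06 to 7.88 M in shNCOR, 7.07 to 10.65 M in shSMRT and 8.94 to 10.84 M in shGFP. Ncor1 was at 4.04 ± 0.372 RPKM in shNCOR, 19.8 ± 0.748 in shSMRT and 19.1 ± 0.973 in shGFP (SD, n = 3 each). RPKM is the read number per kilobase of exons for each M of the library. The Ncor1 log2 fold change in shNCOR over shGFP was -2.00 ± 0.06 SE, limma adjusted p = 8.89e-10. All 10 macrophage markers checked were expressed, and their summed level was 8938 to 9257 RPKM in shNCOR, 10733 to 11318 in shSMRT and 7727 to 7934 in shGFP. Lyz2 (lysozyme) made up most of this sum, with a mean of 6548 RPKM in shNCOR, 8104 in shSMRT and 5195 in shGFP. By gene, 3 markers were higher and 3 (Cd14, Csf1r and Itgam) lower in shNCOR over shGFP, 9 were higher and 1 (Cd14) lower in shSMRT over shGFP, and 9 were higher in shSMRT over shNCOR. The part of these differences in the results below was not tested. None of the 20 markers of T cells, B cells, neutrophils, fibroblasts, epithelium or muscle passed the expression minimum in any group.

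Respiratory chain RNA was mostly lower in shSMRT and, for fewer genes, higher in shNCOR. In shSMRT over shGFP, 52 of the 87 tested members were lower and 2 higher, where 31.4% of all 10789 tested genes were lower and 24.4% higher. In shNCOR over shGFP, 26 were higher and 2 lower, against 17.6% of all tested genes higher and 20.0% lower. Set directly against shNCOR, shSMRT had 73 members lower and 1 higher, against 29.0% lower and 22.8% higher among all tested genes. The changes were small. The median log2 fold change of the tested members was 0.07 in shNCOR over shGFP, -0.18 in shSMRT over shGFP and -0.24 in shSMRT over shNCOR. The median of all tested genes was 0.00, -0.02 and -0.02.

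Tests were limma fits over the whole table on log2(RPKM + 1), with calls at a Benjamini-Hochberg adjusted p under 0.05. The comparisons with shGFP share the same 3 control libraries, so their values are set side by side only. The count of 26 members higher in shNCOR was 17 when shGFP replicate 2 was left out, and the 2 lower members (Atp5o and Uqcrq) were both uncalled without shGFP replicate 1 or 3, shNCOR replicate 2 or 3, or shSMRT replicate 3, and 1 of them without shSMRT replicate 1 or 2. Over all tested genes, 1674 were higher in shNCOR over shGFP without shGFP replicate 2, against 1895 with all libraries. Among genes with a mean of at least 5 RPKM, where 38.0% of 8183 genes were lower in shSMRT over shGFP, 54 of 86 members were. In bulk RNA, fewer cells of a type and less RNA per cell cannot be told apart, and RPKM is a level relative to all RNA of a library.

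Summed over the 85 subunit genes, the level was 17511, 16189 and 16383 RPKM in the shNCOR libraries, 14369, 13692 and 14209 RPKM in the shSMRT libraries, and 16062, 15038 and 15732 RPKM in the shGFP libraries. The shSMRT libraries lay below all others, and the shNCOR libraries lay above those of shGFP. These sums were 3.49 ± 0.074%, 3.00 ± 0.041% and 3.27 ± 0.062% of all RPKM in shNCOR, shSMRT and shGFP (SD, n = 3 each).

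The complexes gave different counts. In shSMRT over shGFP, 27 of 36 tested complex I subunits, 3 of 4 of complex II, 5 of 8 of complex III and 12 of 17 of complex V were lower. Only 1 of 13 of complex IV was lower, while 1 of complex IV and 1 of complex V were higher. Of all tested genes, 31.4% were lower and 24.4% higher. The median of complex V was -0.13 without shSMRT replicate 2. With all libraries the median log2 fold change was -0.20 for complex I, -0.16 for II, -0.19 for III, -0.04 for IV and -0.19 for V. In shNCOR over shGFP, 7, 2, 3, 9 and 4 subunits of complexes I to V were higher. These are 19.4, 50.0, 37.5, 69.2 and 23.5% of the tested subunits, against 17.6% of all tested genes. The shares of complexes I and V lay near that of all genes. The medians were 0.06, 0.10, 0.02, 0.17 and 0.06. Some of these medians rested on single libraries. Complex I in shNCOR over shGFP had 0.0173 without shGFP replicate 2, the lowest value, and was also lower without shNCOR replicate 1. The complex III median was below 0 when either of these libraries was left out, and lowest, at -0.00714, without shNCOR replicate 1. It reached 0.0451 without shNCOR replicate 2, was also over 1.5 times the full value without shGFP replicate 1, and complex V reached 0.087 without shNCOR replicate 2. In shSMRT over shGFP, the complex IV median was -0.0656 without shSMRT replicate 1, and also over 1.5 times as far below 0 without shSMRT replicate 3 or shGFP replicate 2. Between the hairpins the medians lay close together, with 32 of 36, 4 of 4, 6 of 8, 10 of 13 and 15 of 17 subunits lower in shSMRT and medians of -0.26, -0.23, -0.21, -0.27 and -0.23. Of all tested genes, 29.0% were lower in shSMRT over shNCOR. Whether complexes differ from each other was not tested, since a score over chosen members gets no p-value.

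Summed levels are given in full for complexes IV and V, the most abundant. Complex IV held 4827, 4425 and 4515 RPKM in shNCOR, 4034, 3831 and 3974 RPKM in shSMRT, and 4215, 3887 and 4108 RPKM in shGFP. Thus shNCOR lay above both other groups while shSMRT and shGFP overlapped. Complex V held 6255, 5799 and 5865 RPKM in shNCOR, 5040, 4788 and 5015 RPKM in shSMRT, and 5815, 5534 and 5759 RPKM in shGFP. Here shSMRT lay below both and shNCOR overlapped shGFP. Relative to shGFP, the means of complexes I to V changed by -12.5, -10.3, -7.48, -3.04 and -13.2% in shSMRT, and by 4.29, 5.71, 6.67, 12.8 and 4.74% in shNCOR.

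**Figure D1:**
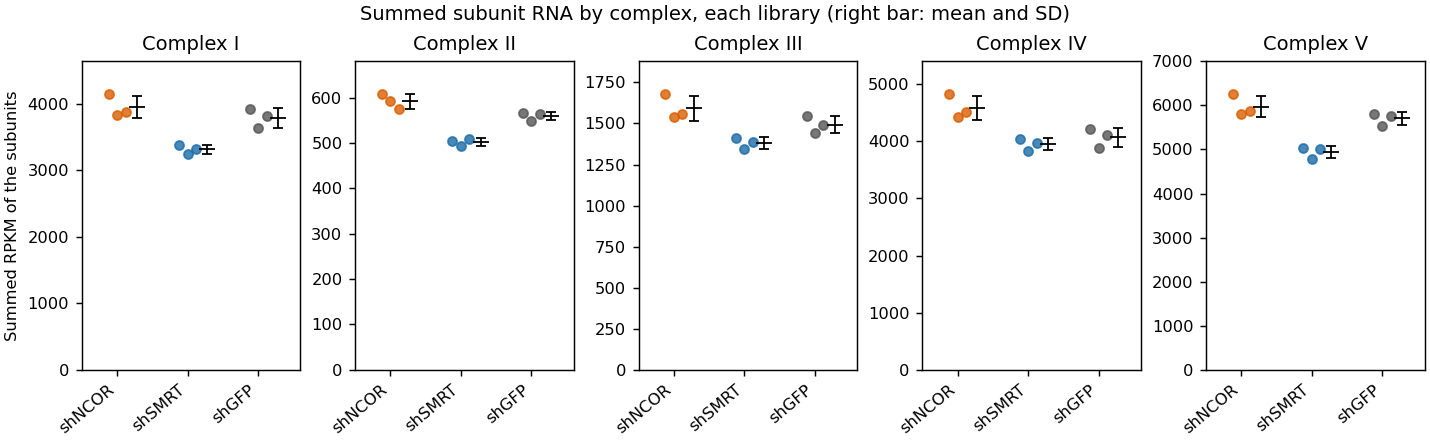
Summed RPKM of the subunits of complexes I to V (y axis, from 0, a scale for each panel), 1 point per library, with the group mean and SD at the right of each group. The shSMRT points lie below the shGFP points in complexes I, II, III and V, and overlap them in complex IV, where the shNCOR points lie highest.

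**Figure D2:**
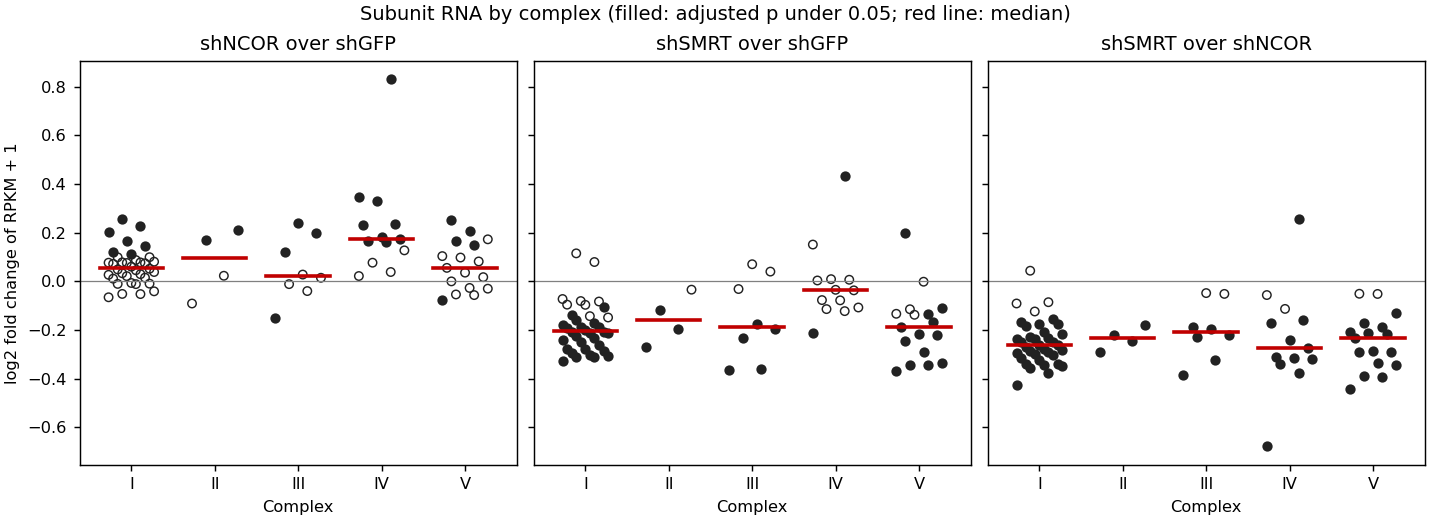
Log2 fold change of RPKM + 1 for the 78 tested subunits, by complex, in shNCOR over shGFP, shSMRT over shGFP and shSMRT over shNCOR. Filled points have an adjusted p under 0.05, open points do not, and red lines are medians; the median of complex IV is highest in both comparisons with shGFP and lies with the others between the hairpins.

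Promoters of 6 genes that the results turn on are shown here, from RefSeq on GRCm38.p6 (the assembly also named mm10), 250 bases before to 50 after the start site on the gene's strand. Cox7a2l and Atp5l were the only members higher in shSMRT than in shGFP, Cox7a1 had the largest change in shNCOR, Atp5o the largest fall in shSMRT, and Ndufs7 and Cox6a1 had less accessible promoters in shSMRT. Capitals mark exact matches, on either strand, to 6 words found in promoters of such genes: CGCATGCG (NRF1), CCGGAAG (ETS factors, including GABP), AAGATGGC (YY1), AAGGTCA (ERR), GGGCGG (SP1) and CCAAT.
Cox7a2l (chr17:83514284-83514583, minus strand): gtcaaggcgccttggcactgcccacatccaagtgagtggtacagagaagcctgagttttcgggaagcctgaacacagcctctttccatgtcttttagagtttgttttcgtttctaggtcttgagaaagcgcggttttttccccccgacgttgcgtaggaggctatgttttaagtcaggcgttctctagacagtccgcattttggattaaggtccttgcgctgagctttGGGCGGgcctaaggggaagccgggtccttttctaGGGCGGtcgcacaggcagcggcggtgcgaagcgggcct
Atp5l (chr9:44920693-44920992, minus strand): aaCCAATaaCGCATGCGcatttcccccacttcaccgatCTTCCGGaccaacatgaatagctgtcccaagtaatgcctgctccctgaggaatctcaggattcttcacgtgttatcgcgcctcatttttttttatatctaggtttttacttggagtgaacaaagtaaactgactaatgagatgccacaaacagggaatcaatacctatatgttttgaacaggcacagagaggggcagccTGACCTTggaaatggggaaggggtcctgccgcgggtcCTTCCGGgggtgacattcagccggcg
Cox7a1 (chr7:30183921-30184220, plus strand): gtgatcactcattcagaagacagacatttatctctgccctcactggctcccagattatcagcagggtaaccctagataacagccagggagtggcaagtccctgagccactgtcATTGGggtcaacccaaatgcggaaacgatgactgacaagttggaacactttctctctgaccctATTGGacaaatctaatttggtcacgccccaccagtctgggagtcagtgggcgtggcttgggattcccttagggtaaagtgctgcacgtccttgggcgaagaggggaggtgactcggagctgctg
Atp5o (chr16:91931581-91931880, minus strand): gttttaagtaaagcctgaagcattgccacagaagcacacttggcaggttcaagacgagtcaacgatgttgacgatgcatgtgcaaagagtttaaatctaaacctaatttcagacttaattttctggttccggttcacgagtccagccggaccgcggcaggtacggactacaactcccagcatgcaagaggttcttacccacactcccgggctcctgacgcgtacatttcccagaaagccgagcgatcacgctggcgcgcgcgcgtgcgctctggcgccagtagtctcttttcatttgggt
Ndufs7 (chr10:80249199-80249498, plus strand): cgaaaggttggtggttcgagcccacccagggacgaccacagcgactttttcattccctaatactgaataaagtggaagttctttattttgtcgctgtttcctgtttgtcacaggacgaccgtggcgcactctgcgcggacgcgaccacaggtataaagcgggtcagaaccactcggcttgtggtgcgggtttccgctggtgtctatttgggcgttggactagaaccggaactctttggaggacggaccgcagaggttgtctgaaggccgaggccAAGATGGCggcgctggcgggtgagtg
Cox6a1 (chr5:115348909-115349208, minus strand): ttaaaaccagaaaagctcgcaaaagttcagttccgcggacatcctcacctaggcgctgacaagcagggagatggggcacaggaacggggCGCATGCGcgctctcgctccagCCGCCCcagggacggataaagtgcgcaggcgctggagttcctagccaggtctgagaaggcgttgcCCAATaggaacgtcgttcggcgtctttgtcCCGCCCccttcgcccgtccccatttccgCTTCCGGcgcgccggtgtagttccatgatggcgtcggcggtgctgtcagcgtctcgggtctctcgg

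Cox6a1 and Atp5l carried the most kinds of word, Cox7a2l only GGGCGG, Cox7a1 only CCAAT, Ndufs7 only AAGATGGC, and Atp5o none. Promoters were found for 76 of the 95 members, 81 promoters in all, by transcript accession. The NRF1 word was in 13.6% of them against 1.87% of all 32851 promoters, the YY1 word in 13.6% against 2.75%, the ETS word in 23.5% against 8.86% and the ERR word in 9.88% against 4.72%. GGGCGG was in 44.4% against 35.7%, and CCAAT in 43.2% against 37.4%; these 2 short words can overlap the others. A match is a run of letters and not a measured binding site.

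In complex I, the core subunits carry the flavin and the iron-sulphur clusters that take electrons from NADH to ubiquinone, and the core genes named here were lower in shSMRT than in shGFP. Ndufs8, which holds a pair of iron-sulphur clusters, was at 180.5, 161 and 163 RPKM in shNCOR, 139, 135 and 137 RPKM in shSMRT and 169, 168 and 170.5 RPKM in shGFP. Only the shSMRT libraries stood apart, and the log2 fold change over shGFP was -0.30 ± 0.04 SE, limma adjusted p = 6.16e-05. Ndufs7, which carries the last cluster before ubiquinone, was at 146, 138 and 145 RPKM in shNCOR, 118, 108 and 116 RPKM in shSMRT and 142, 128 and 131 RPKM in shGFP. It too was lowest in shSMRT, with a log2 fold change over shGFP of -0.22 ± 0.05 SE, limma adjusted p = 0.00159.

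Ndufv1, the NADH-binding subunit, was also higher in shNCOR than in shGFP. It had 76.6, 72.2 and 76.3 RPKM in shNCOR, 60.4, 58.3 and 61.6 RPKM in shSMRT and 69.8, 66.6 and 67.1 RPKM in shGFP. The 3 groups did not overlap. Its log2 fold change over shGFP was 0.14 ± 0.03 SE, limma adjusted p = 0.00573 in shNCOR and -0.17 ± 0.03 SE, limma adjusted p = 0.00115 in shSMRT. Ndufs1, Ndufs3 and Ndufv2, further core genes, were lower in shSMRT over shGFP with log2 fold changes of -0.19, -0.21 and -0.18; Ndufs1 overlaps Ino80dos on the other strand.

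Accessory subunits build the frame around this core, and 21 of 29 were lower and 0 higher in shSMRT over shGFP. The largest falls were in Ndufb5, Ndufb6 and Ndufs6, with log2 fold changes of -0.33, -0.31 and -0.31; the first 2 belong to the membrane arm. Ndufa10, whose subunit sits in the membrane arm and is known as a target of the kinase PINK1, was at 108, 109.9 and 107 RPKM in shNCOR, 80.6, 79.0 and 81.4 RPKM in shSMRT and 101, 99.3 and 99.0 RPKM in shGFP. Its 3 groups were fully apart, with shNCOR highest and shSMRT lowest, and the log2 fold changes over shGFP were 0.12 ± 0.02 SE, limma adjusted p = 0.00237 in shNCOR and -0.31 ± 0.02 SE, limma adjusted p = 1.45e-06 in shSMRT.

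Of the 29 accessory genes, 6 (20.7%) were higher in shNCOR over shGFP, near the 17.6% of all tested genes. By size, Ndufb3 and Ndufa1 changed most of these 6, and both encode small membrane-arm subunits. Ndufb3 had 125, 113 and 114 RPKM in shNCOR, 95.9, 89.0 and 91.1 RPKM in shSMRT and 101, 95.3 and 98.4 RPKM in shGFP. Here shNCOR lay above both other groups (0.25 ± 0.04 SE, limma adjusted p = 0.000863 over shGFP). Ndufa1, whose span overlaps Rnf113a1 on the other strand, had 0.23 in shNCOR over shGFP, but its libraries overlapped, and the call was lost under 8 of the alternative settings. By gene name, 8 of 10 Ndufb, 2 of 2 Ndufc, 6 of 8 Ndufs, 3 of 3 Ndufv and 8 of 13 Ndufa subunits (with Ndufab1 and without Ndufa4, which is counted in complex IV) were lower in shSMRT over shGFP. Of the assembly factors Ndufaf1 to Ndufaf8, which build complex I without staying in it, 4 of 8 were lower. All these counts stand against 31.4% of all tested genes lower in shSMRT over shGFP. Ndufaf3 had -0.35 ± 0.04 SE, limma adjusted p = 4.27e-05.

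Complex II has 4 subunits, all nuclear genes, of which 2 were higher in shNCOR and 3 lower in shSMRT. Sdha, the flavoprotein that oxidizes succinate, was at 141, 137 and 132 RPKM in shNCOR, 112, 112 and 111 RPKM in shSMRT and 123, 118 and 122 RPKM in shGFP. The groups did not overlap. Its log2 fold change over shGFP was 0.17 ± 0.03 SE, limma adjusted p = 0.000726 in shNCOR and -0.12 ± 0.03 SE, limma adjusted p = 0.0046 in shSMRT. Sdhb, the iron-sulphur subunit, had 134, 127 and 126 RPKM in shNCOR, 116, 112 and 114 RPKM in shSMRT and 139.8, 132 and 142 RPKM in shGFP. Only shSMRT lay apart, with -0.27 ± 0.03 SE, limma adjusted p = 4.95e-05 over shGFP, and shNCOR had -0.09 ± 0.03 SE, limma adjusted p = 0.055. Of the membrane anchors, Sdhc was higher in shNCOR (0.21 ± 0.04 SE, limma adjusted p = 0.00138) and Sdhd was lower in shSMRT (-0.20 ± 0.03 SE, limma adjusted p = 6.88e-05).

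In complex III, 5 of 8 subunits were lower in shSMRT, and Uqcrh, Uqcr10 and Uqcr11 did not pass. Uqcrc2 (chr7:120635189-120659523, plus strand), one of the core proteins of the matrix side, overlaps Pdzd9 on the other strand and was at 113, 109.6 and 107 RPKM in shNCOR, 89.2, 85.3 and 88.0 RPKM in shSMRT and 113, 113 and 113 RPKM in shGFP. Its shSMRT libraries lay below all others, with a log2 fold change over shGFP of -0.37 ± 0.03 SE, limma adjusted p = 1.17e-06. Uqcrb, a ubiquinone-binding subunit, had -0.36 ± 0.04 SE, limma adjusted p = 4.7e-05 in the same comparison. The other core protein, Uqcrc1, had -0.23 ± 0.03 SE, limma adjusted p = 7.41e-05, and the Rieske iron-sulphur protein Uqcrfs1 -0.18 ± 0.04 SE, limma adjusted p = 0.00167.

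Uqcrh, the hinge protein that docks cytochrome c1 and the most abundant complex III gene, had 413, 372 and 372 RPKM in shNCOR, 341, 311 and 334 RPKM in shSMRT and 349, 329 and 331 RPKM in shGFP. It stood apart only in shNCOR (0.20 ± 0.05 SE, limma adjusted p = 0.00727), as did Uqcr11 (0.24 ± 0.05 SE, limma adjusted p = 0.00436), the smallest subunit. Uqcr10 was higher in shNCOR (log2 fold change 0.12), with overlapping libraries and a call lost under 11 alternative settings. Uqcrq was lower in both, with log2 fold changes over shGFP of -0.15 in shNCOR and -0.20 in shSMRT, the shNCOR call being lost under 9 settings.

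In complex IV, all 13 tested subunits had a positive log2 fold change in shNCOR over shGFP, and 9 passed the test. Cox6c, a small subunit that spans the membrane (chr15:35931976-35938246, minus strand), was at 361, 330.3 and 339 RPKM in shNCOR, 277, 266 and 270.5 RPKM in shSMRT and 277, 268 and 266 RPKM in shGFP. Ndufa4, once assigned to complex I and now placed in complex IV, had 400.5, 362 and 370.3 RPKM in shNCOR, 299, 297 and 309.6 RPKM in shSMRT and 311, 281 and 309 RPKM in shGFP. For both genes shNCOR lay above the other groups, which overlapped. The log2 fold change in shNCOR over shGFP was 0.35 ± 0.04 SE, limma adjusted p = 1.78e-05 for Cox6c and 0.33 ± 0.05 SE, limma adjusted p = 0.000186 for Ndufa4.

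Cox6b1, which sits at the contact within the complex IV dimer, and Cox7b had 0.23 ± 0.04 SE, limma adjusted p = 0.00111 and 0.24 ± 0.04 SE, limma adjusted p = 0.00104 in shNCOR over shGFP. Cox5b, a zinc-binding subunit, was the only complex IV gene lower in shSMRT over shGFP. It was at 352, 323 and 345 RPKM in shNCOR, 264, 254 and 268 RPKM in shSMRT and 309.9, 296 and 305 RPKM in shGFP. These groups did not overlap, with log2 fold changes over shGFP of 0.16 ± 0.04 SE, limma adjusted p = 0.00455 in shNCOR and -0.21 ± 0.04 SE, limma adjusted p = 0.00045 in shSMRT. Cox4i1, the most abundant complex IV gene and a regulator of the complex by ATP, was at 749 ± 43.3 RPKM in shNCOR, 664 ± 15.9 in shSMRT and 664 ± 51.7 in shGFP (SD, n = 3 each). Its log2 fold change was 0.17 ± 0.06 SE, limma adjusted p = 0.0292 in shNCOR over shGFP, a call lost under 7 settings, and 0.00 ± 0.06 SE, limma adjusted p = 0.966 in shSMRT over shGFP. Cox5a, Cox7a2, Cox7c and Cox8a passed in neither comparison with shGFP.

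The Cox7a family held the largest rise of each hairpin over shGFP. Cox7a2l (chr17:83501917-83514333, minus strand), known as SCAFI or COX7RP, joins complexes III and IV into supercomplexes. In some mouse strains a shortened form of the protein is made. Which form these cells make was not examined, so the RNA level does not show a change in supercomplexes. Cox7a2l RNA was at 142, 137 and 133 RPKM in shNCOR, 165, 157 and 170.4 RPKM in shSMRT and 124, 118 and 121 RPKM in shGFP. The shSMRT libraries were highest, those of shNCOR between and those of shGFP lowest, without overlap. The log2 fold change was 0.43 ± 0.04 SE, limma adjusted p = 1.91e-06 in shSMRT over shGFP, 0.18 ± 0.04 SE, limma adjusted p = 0.00213 in shNCOR over shGFP and 0.25 ± 0.04 SE, limma adjusted p = 0.000122 in shSMRT over shNCOR. Cox7a2l was the only member higher in shSMRT than in shNCOR. Of the summed RPKM of Cox7a1, Cox7a2 and Cox7a2l, the share of Cox7a2l was 44.3 ± 1.1% in shNCOR, 52.1 ± 0.9% in shSMRT and 42.6 ± 0.85% in shGFP (SD, n = 3 each).

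Cox7a1 (chr7:30184171-30186030, plus strand), the isoform of heart and skeletal muscle, was at 12.3, 10.1 and 11.3 RPKM in shNCOR, 7.35, 6.81 and 5.72 RPKM in shSMRT and 6.35, 6.32 and 4.96 RPKM in shGFP. It was higher in all 3 shNCOR libraries than in any other, with 0.83 ± 0.10 SE, limma adjusted p = 8.29e-05 over shGFP, the largest change of any member, and shSMRT overlapped shGFP (0.15 ± 0.10 SE, limma adjusted p = 0.234). Its level stayed far under that of the common isoform Cox7a2: Cox7a1 made up 6.48 ± 0.39% of the RPKM of the pair in shNCOR, 4.4 ± 0.58% in shSMRT and 3.61 ± 0.54% in shGFP (SD, n = 3 each). The 4 muscle markers summed to 0.143 to 0.259 RPKM in shNCOR, 0.175 to 0.357 in shSMRT and 0.055 to 0.127 in shGFP, under the expression minimum of 1 RPKM.

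The other tissue isoforms were at or near 0, and none of the 7 below the expression minimum was tested. The heart and muscle isoform Cox6a2 was listed at 0.0620, 0.0350 and 0 RPKM in shNCOR, 0, 0.180 and 0.114 RPKM in shSMRT and 0.530, 0.547 and 0.896 RPKM in shGFP. Its share of Cox6a1 and Cox6a2 together was 0.184% at most. Cox4i2, the isoform of lung and low oxygen, was at 0.0850, 0 and 0.246 RPKM in shNCOR, 0.0630, 0.360 and 0.551 RPKM in shSMRT and 0.0320, 0.213 and 0.177 RPKM in shGFP. Ndufa4l2 stayed at or under 0.267 RPKM and the testis isoform Cox6b2 at or under 0.099 RPKM, while Cox7b2, Cox8b and Cox8c, like the gene copy Ndufa11b, were listed at 0 in all 9 libraries.

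**Figure D3:**
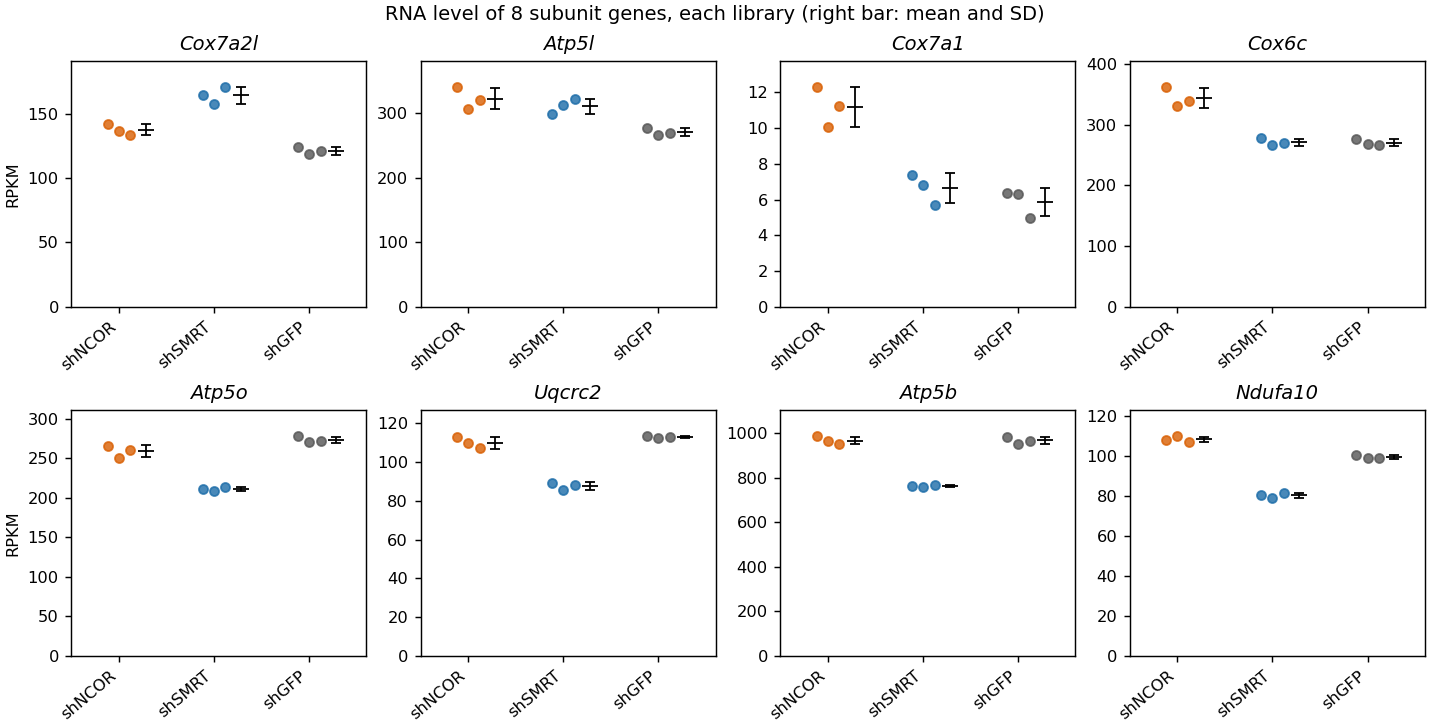
RPKM of 8 subunit genes (y axis, from 0, a scale for each panel), 1 point per library, in shNCOR, shSMRT and shGFP, with the group mean and SD at the right of each group. Cox7a2l and Atp5l lie above shGFP under both hairpins, Cox7a1 and Cox6c only in shNCOR, and Atp5o, Uqcrc2, Atp5b and Ndufa10 lie lowest in shSMRT.

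In complex V, 4 of the 5 genes of the catalytic head were lower in shSMRT, and 0 of 5 were called in shNCOR. Atp5b, the beta subunit where ATP is made and the most abundant member, was at 985, 963 and 952 RPKM in shNCOR, 763, 757 and 767 RPKM in shSMRT and 983, 953 and 966 RPKM in shGFP. The shSMRT libraries lay below all others, with a log2 fold change over shGFP of -0.34 ± 0.03 SE, limma adjusted p = 1.35e-06, against -0.00 ± 0.03 SE, limma adjusted p = 0.99 in shNCOR. Atp5a1, the alpha subunit, was at 569, 557 and 543 RPKM in shNCOR, 425, 422 and 425 RPKM in shSMRT and 542, 529 and 534 RPKM in shGFP. It was likewise lowest in shSMRT, with -0.33 ± 0.03 SE, limma adjusted p = 1.37e-06 over shGFP. Of the other genes of this group of 5, Atp5d and Atp5c1 were lower in shSMRT, with -0.21 and -0.11. Atp5e had -0.14 ± 0.06 SE, limma adjusted p = 0.0674, which did not pass.

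Atp5o (chr16:91925223-91931630, minus strand), the oligomycin sensitivity subunit at the top of the peripheral stalk, was at 265, 251 and 261 RPKM in shNCOR, 211, 209 and 214 RPKM in shSMRT and 277, 269.7 and 272 RPKM in shGFP. With -0.37 ± 0.03 SE, limma adjusted p = 1.02e-06 in shSMRT over shGFP it had the lowest log2 fold change of all tested members, and all 4 genes of the peripheral stalk were lower in that comparison. In shNCOR over shGFP it had -0.08 ± 0.03 SE, limma adjusted p = 0.0487, a call lost under 12 alternative settings.

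The c ring, the rotor in the membrane, is made from the same mature protein encoded by Atp5g1, Atp5g2 and Atp5g3, of which 2 were lower in shSMRT and 1 higher in shNCOR. Atp5g3, the most abundant of them, was at 553, 503 and 505 RPKM in shNCOR, 388, 381 and 379 RPKM in shSMRT and 486, 447 and 475 RPKM in shGFP. Its groups lay apart, with 0.15 ± 0.04 SE, limma adjusted p = 0.0149 in shNCOR and -0.29 ± 0.04 SE, limma adjusted p = 0.00012 in shSMRT over shGFP. Atp5g1 was lower in shSMRT (-0.34 ± 0.04 SE, limma adjusted p = 1.74e-05), and Atp5g2 was not called in either comparison with shGFP (-0.12 ± 0.05 SE, limma adjusted p = 0.063 in shSMRT). The share of Atp5g3 among the c subunit RPKM was 58.1 ± 0.15% in shNCOR, 53.5 ± 0.65% in shSMRT and 55.5 ± 0.66% in shGFP, and that of Atp5g2 was 30.2 ± 0.41%, 34.5 ± 0.98% and 31.6 ± 0.63% (SD, n = 3 each).

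Atp5l (chr9:44913248-44920742, minus strand), subunit g, which helps ATP synthase form dimers, was the second member higher in shSMRT. It was at 341, 308 and 320.5 RPKM in shNCOR, 299, 313 and 322 RPKM in shSMRT and 277, 266 and 269.9 RPKM in shGFP. Both hairpin groups lay above shGFP and overlapped each other. The log2 fold change over shGFP was 0.25 ± 0.04 SE, limma adjusted p = 0.000525 in shNCOR and 0.20 ± 0.04 SE, limma adjusted p = 0.00143 in shSMRT. Another small membrane subunit, Atp5md (DAPIT), which overlaps Taf5 on the other strand, was higher only in the shNCOR comparison (0.21 ± 0.06 SE, limma adjusted p = 0.0135), a call lost without shGFP replicate 2, and had -0.00 ± 0.06 SE, limma adjusted p = 0.981 in shSMRT. Atp5j2, subunit f, was higher in shNCOR (0.17 ± 0.05 SE, limma adjusted p = 0.0253) and lower in shSMRT (-0.17 ± 0.05 SE, limma adjusted p = 0.0163). The first of these calls was lost under 3 settings and the second under 4.

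In the comparisons with shGFP, which share the control libraries, the change of a subunit gene varied with the length of the counted transcript. Subunit genes are short. Their median summed exon length was 672.5 bases, against 2652 bases for all tested genes. Across the 78 tested subunits, Spearman's correlation of the log2 fold change with exon length was -0.47 in shNCOR over shGFP and -0.31 in shSMRT over shGFP, against 0.04 and 0.16 across all tested genes, with shared libraries and no independence between genes. The correlation was 0.13 across the subunits and 0.14 across all tested genes in shSMRT over shNCOR. Removing the length trend of all genes left 55 members lower and 6 higher in shSMRT over shGFP, and 26 higher and 4 lower in shNCOR over shGFP. Over all 10789 tested genes, that setting gave 3192 lower and 2721 higher in shSMRT over shGFP. In shNCOR over shGFP it gave 2040 higher and 2228 lower. The part of RNA fragment size or library composition in these values was not tested.

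**Figure D4:**
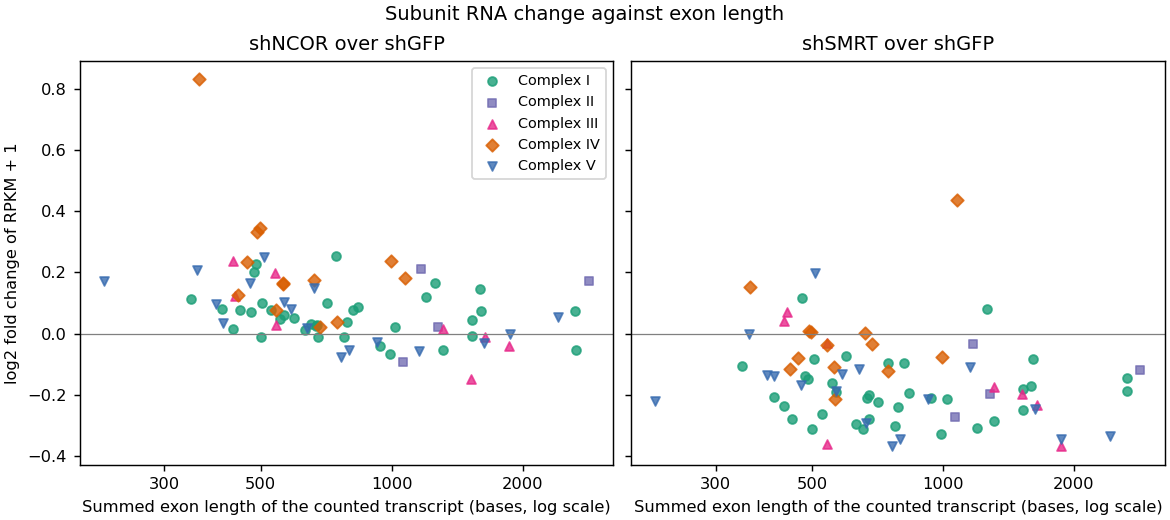
Log2 fold change of RPKM + 1 (y axis) against summed exon length (x axis, bases, log scale) for the 78 tested subunits, by complex, in shNCOR over shGFP and shSMRT over shGFP. Points slope down to the right in the shNCOR panel, less so in the shSMRT panel, where Cox7a2l stands alone at the top.

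All 13 citric acid cycle genes listed were lower in shSMRT than in shGFP, with a median log2 fold change of -0.19, and 5 were higher and 1 lower in shNCOR over shGFP. Among all tested genes, 31.4% were lower in shSMRT over shGFP, and 17.6% higher and 20.0% lower in shNCOR over shGFP. Sucla2, a subunit of succinyl-CoA ligase, was at 39.8, 36.5 and 36.3 RPKM in shNCOR, 24.8, 21.8 and 25.7 RPKM in shSMRT and 36.6, 35.0 and 38.9 RPKM in shGFP. It was lowest in shSMRT, with -0.59 ± 0.06 SE, limma adjusted p = 1.17e-05 over shGFP. Of the carriers and remaining subunits, 11 of 13 tested were lower in shSMRT, among them Cycs, cytochrome c (-0.32 ± 0.04 SE, limma adjusted p = 5.08e-05), Cyc1, cytochrome c1 of complex III (-0.35 ± 0.03 SE, limma adjusted p = 8.44e-06), and Coq7, a coenzyme Q hydroxylase (-0.65 ± 0.06 SE, limma adjusted p = 5.95e-06).

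Of 46 assembly factors, 18 (39.1%) were lower and 4 (8.70%) higher in shSMRT over shGFP, against 31.4% lower and 24.4% higher among all tested genes. In shNCOR over shGFP, 7 (15.2%) were higher and 3 (6.52%) lower, against 17.6% and 20.0%. The share lower in shSMRT thus lay not far above that of all genes, and the share higher in shNCOR below it. Tmem70, needed for ATP synthase assembly, had -0.45 ± 0.04 SE, limma adjusted p = 8.48e-06 in shSMRT over shGFP. Cox17, the copper chaperone of complex IV, was at 170.1, 149 and 169 RPKM in shNCOR, 207, 199.7 and 205 RPKM in shSMRT and 167, 140.5 and 150.4 RPKM in shGFP. It was highest in shSMRT, with 0.42 ± 0.06 SE, limma adjusted p = 0.000176 over shGFP. Of 14 glycolytic genes, 12 (85.7%) were lower and 0 higher in shSMRT over shGFP, against the same 31.4% and 24.4%. In shNCOR over shGFP, 5 (35.7%) were lower, against 20.0% of all tested genes, and 1, Pgam1, a phosphoglycerate mutase, was higher (0.11).

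Of genes that express mitochondrial DNA, 2 of 10 were lower in shSMRT over shGFP, a share below the 31.4% of all tested genes, including Tfam, which packages that DNA (-0.39 ± 0.05 SE, limma adjusted p = 4.61e-05 in shSMRT and -0.22 ± 0.05 SE, limma adjusted p = 0.00398 in shNCOR over shGFP). Among 9 tested regulators of respiratory genes, 3 (33.3%) were lower in shSMRT over shGFP, near the 31.4% of all tested genes. In shNCOR over shGFP, 3 (33.3%) were lower, against 20.0% of all tested genes. Nrf1 was lower in shSMRT (-0.31 ± 0.06 SE, limma adjusted p = 0.00121). Gabpa and Gabpb1, which encode an alpha and a beta subunit of the factor GABP, were lower under both hairpins. Gabpa had -0.14 ± 0.03 SE, limma adjusted p = 0.00561 in shNCOR over shGFP and -0.16 ± 0.03 SE, limma adjusted p = 0.00172 in shSMRT over shGFP. Gabpb1 had -0.29 ± 0.04 SE, limma adjusted p = 0.000156 in shNCOR over shGFP and -0.30 ± 0.04 SE, limma adjusted p = 6.46e-05 in shSMRT over shGFP. Neither passed the test in shSMRT over shNCOR (-0.02 and -0.01). Esrra, which encodes the orphan receptor ERR alpha, was higher in shNCOR (0.11 ± 0.04 SE, limma adjusted p = 0.0303). Ppargc1a and Ppara were listed at 0 in all libraries. Myc was the one regulator called higher in shSMRT over shGFP, with a log2 fold change of 1.11 ± 0.11 SE. It was at 1.28, 1.06 and 0.836 RPKM in shNCOR, 2.84, 2.46 and 3.09 RPKM in shSMRT and 0.888, 0.822 and 0.575 RPKM in shGFP, low levels in all groups. All shGFP values lay under the expression minimum of 1 RPKM. Without the shSMRT libraries, where it is high, Myc would not have been tested, so its call is not read as support.

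Accessibility changed at a minority of the member peaks. Of 165 tested member peaks, 22 were lower and 4 higher in shSMRT over shGFP, against 10.9% and 6.81% of all 51469 tested peaks. In the other comparison with the control, 8 were higher and 6 lower in shNCOR over shGFP, against 4.58% and 4.00%. In shSMRT over shNCOR, 42 were lower and 4 higher, against 17.5% and 6.93% of all tested peaks. At the 77 peaks within 1 kb of a start site, which cover 76 members, 12 (15.6%) were lower and 0 higher in shSMRT over shGFP, whereas 21.8% of all tested peaks so close to a start site were lower. In shSMRT over shNCOR, 32 of the 77 (41.6%) were lower, against 41.7% of all such peaks.

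The accessibility counts depended on the scaling and, where few peaks were called, on single libraries. In the deposited values, per 10 M reads of a library, the median log2 fold change of all tested peaks was 0.05 in shNCOR over shGFP, -0.09 in shSMRT over shGFP and -0.12 in shSMRT over shNCOR. These medians became -0.02, 0.00 and 0.04 when libraries were scaled to their reads in peaks, so the sign turned for shNCOR over shGFP and for shSMRT over shNCOR. With that scaling, 7 of the 77 member peaks within 1 kb were lower in shSMRT over shGFP and 7 in shSMRT over shNCOR, against 12 and 32 in the deposited values. The share of all peaks within 1 kb was not taken under that scaling, so these 2 counts of 7 have no matching background. Among all 165 member peaks, reads in peaks gave 6 higher and 15 lower in shSMRT over shGFP, and 9 higher and 12 lower in shSMRT over shNCOR. Over all tested peaks, it gave 4543 higher and 2800 lower in shSMRT over shGFP, against 3506 and 5595 as deposited. In shSMRT over shNCOR, it gave 5120 higher and 2582 lower, against 3565 and 8999 as deposited, so more of all peaks were higher than lower. Of single libraries, leaving out shGFP replicate 2, shGFP replicate 3, shNCOR replicate 1 or shNCOR replicate 3 gave 2, 3, 4 or 5 peaks higher in shNCOR over shGFP, and shGFP replicate 1, 2 or 3 gave 3, 3 or 2 lower. The 4 peaks higher in shSMRT over shGFP were 2 without shGFP replicate 1 or shSMRT replicate 1 or 2. In shSMRT over shNCOR, the 42 lower peaks were 27 without shSMRT replicate 1, and the 4 higher were 2 without shNCOR replicate 1 or 2 or any shSMRT library. At member peaks within 1 kb the median went the same way as in the deposited values under every scaling tried. It was 0.11 in shNCOR and -0.19 in shSMRT over shGFP as deposited, and 0.04 and -0.09 with reads in peaks. Over all tested peaks within 1 kb, the deposited medians were 0.08 and -0.20, near those of the member peaks. Reads in peaks were 54.7 to 55.7% of each library in shNCOR, 47.6 to 49.9% in shSMRT and 50.6 to 54.0% in shGFP, and the part of this share in the counts was not tested.

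A few promoters were less accessible in shSMRT under every setting tried. The Cox6a1 promoter peak (chr5:115348764-115349395, which covers the sequence printed for this gene) had 170.3, 179.9 and 165 reads per 10 M in shNCOR, 100.5, 93.0 and 100.5 in shSMRT and 159.9, 155 and 129 in shGFP. Its shSMRT libraries lay below all others (-0.57 ± 0.13 SE, limma adjusted p = 0.00105 over shGFP), while Cox6a1 RNA in shSMRT over shGFP was -0.11 ± 0.04 SE, limma adjusted p = 0.0552. The Ndufs7 promoter peak (chr10:80248941-80249697) had 409, 401 and 417 reads per 10 M in shNCOR, 299.5, 284 and 267 in shSMRT and 423, 346 and 359.6 in shGFP. It was lowest in shSMRT, as its RNA was (-0.40 ± 0.09 SE, limma adjusted p = 0.00123 over shGFP).

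The promoter peaks of Atp5e, Atp5j2 and Atp5k, small subunits of complex V, were also lower in shSMRT over shGFP under every setting, with log2 fold changes of -0.55, -0.58 and -0.60. In shNCOR, 2 promoter peaks were higher, those of Ndufs8 (chr19:3912505-3913141; 0.31 ± 0.08 SE, limma adjusted p = 0.0132 over shGFP) and Ndufb8 (chr19:44554676-44555574; 0.48 ± 0.14 SE, limma adjusted p = 0.0272). Both calls were lost without shGFP replicate 2, shGFP replicate 3 or shNCOR replicate 1, and that of Ndufb8 also without shNCOR replicate 3. The RNA of neither gene passed the test in shNCOR over shGFP (-0.01 and 0.03).

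Gene by gene, the correlations between RNA and promoter accessibility changes lay between -0.18 and 0.13. Cox7a2l, Atp5l, Cox7a1 and Atp5o, picked out above by their RNA, had promoter peaks that passed no test against shGFP. Cox7a2l had -0.19 ± 0.13 SE, limma adjusted p = 0.3 in shSMRT, Atp5l 0.02 ± 0.15 SE, limma adjusted p = 0.939 in shSMRT, Cox7a1 0.14 ± 0.11 SE, limma adjusted p = 0.488 in shNCOR and Atp5o 0.07 ± 0.15 SE, limma adjusted p = 0.796 in shSMRT. Over the 76 members with a promoter peak, Spearman's correlation between the RNA and ATAC log2 fold changes was -0.18 in shNCOR over shGFP and -0.03 in shSMRT over shGFP. It was 0.13 in shSMRT over shNCOR. Of 46 such members lower in RNA in shSMRT over shGFP, 7 also had a lower promoter peak, where 12 of all 76 had one. In shSMRT over shNCOR, 64 were lower in RNA and 31 in ATAC, and 25 in both.

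**Figure D5:**
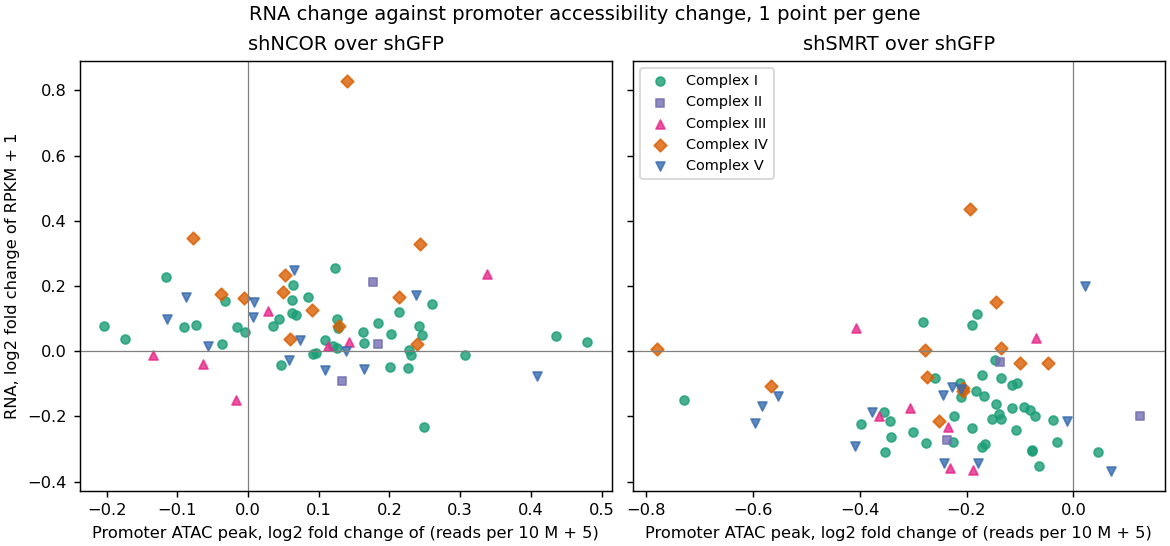
Log2 fold change of RNA (RPKM + 1, y axis) against that of the promoter ATAC peak (reads per 10 M + 5, x axis), 1 point per member with a peak within 1 kb, by complex, in shNCOR over shGFP and shSMRT over shGFP. In shSMRT most points lie left of and below 0, with no visible slope between the axes.

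Distal peaks were annotated to the nearest start site, which does not show which gene they act on. The peak 33858 bases from the Cox4i1 start (chr8:120701901-120702455) was lower under both hairpins, with 68.6, 82.5 and 64.7 reads per 10 M in shNCOR, 70.4, 62.4 and 58.0 in shSMRT and 141, 100.3 and 151 in shGFP. The log2 fold changes over shGFP were -0.81 ± 0.17 SE, limma adjusted p = 0.000841 in shNCOR and -0.97 ± 0.17 SE, limma adjusted p = 3.18e-05 in shSMRT. The peak 22968 bases from Ndufa11b (chr16:22076466-22076844), a gene listed at 0 in RNA, was higher under both, with 30.4, 29.7 and 45.7 reads per 10 M in shNCOR, 46.0, 48.8 and 28.3 in shSMRT and 11.2, 6.56 and 9.22 in shGFP. These were the largest rises in both comparisons (1.52 and 1.70). Of its shGFP values, only 11.2 reached the minimum of 10. The peak was thus tested through the hairpin libraries where it is high, and both rises start near that minimum. The lowest change in shSMRT over shGFP was at the peak -38366 bases from the Atp5o start (-1.28 ± 0.28 SE, limma adjusted p = 0.000846).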

How the data were processed

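The authors deposited RNA values as RPKM (the columns say FPKM), counted by HOMER over exons of mm10 RefSeq transcripts, both strands, 1 transcript per gene, per the file headers. The deposited ATAC values are reads in a peak with each library scaled to 10 M, per the file headers, and use decimal commas; 1 table cell held no number. Tools listed in the submitters' processing notes are HISAT2, Bowtie2, MACS2, HOMER and DESeq2; builds are mm10 and mm9, with no version or role given. Titles name hairpins for the ATAC libraries although the labels' protocol speaks of wild-type cells; titles were followed.

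All 9 libraries of an assay entered 1 fit in limma 3.58.1 under R 4.3.3, with its trend option. Genes needed 1 RPKM or more in 3 libraries (10789 passed, as log2(RPKM + 1)); peaks needed a value of 10 or more in 3 (51469 passed, as log2(value + 5)). These fold changes understate those of low genes. Depth was recovered from whole multiples of 1 read, to within 0.1 read, in 100% of the low values tested. No pair of libraries of the same group agreed within sampling noise, and pairs across groups were not compared. Fits were tested on simulated data. Tables and figures used pandas 2.3.3 and matplotlib 3.10.9.

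Genes named were, per complex, the most abundant subunit, the 3 called subunits with the smallest and the 3 with the largest log2 fold change against shGFP, isoform families and catalytic subunits; for peaks, those nearest to these genes within 1 kb and up to 10 called per direction. Genes of the pathway lists and the printed promoters were chosen after their values were seen. Members, lists and promoter words were chosen with earlier results of these data known. Promoters came from RefSeq. Alternatives were other pseudocounts, filters, scalings, windows, fits and leaving out each library. SMRT's own transcript and the single values of 1 member are not reported here.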

Additional observations from a re-analysis of the deposited data

Results flagged for a closer look

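Mitochondrial DNA itself, which encodes the remaining subunits, is covered by 4 ATAC peaks that no comparison above used. Their share of all reads was 0.607, 0.749 and 0.584% in shNCOR, with a mean of 0.647 ± 0.089%, 0.423, 0.509 and 0.616% in shSMRT, with a mean of 0.516 ± 0.096%, and 0.511, 0.429 and 0.43% in shGFP, with a mean of 0.457% (SD, n = 3 each). It was noted because all 3 shNCOR libraries lay above all shGFP libraries, while shSMRT overlapped both. The libraries of shNCOR were also the shallowest on the whole (6.06 to 7.88 M reads, against 8.94 to 10.84 M in shGFP), and within each of the 3 groups the share was highest in the shallowest library. The part of depth in this difference was not tested.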

How the results depend on the processing

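No named gene or peak was called in opposite directions under different settings. Of 3339 alternative values for 159 gene results, 3162 kept their side of the threshold. Uncalled values that changed sign and stayed uncalled were counted as kept. With the sign unchanged, 114 lost a call and 61 gained one. Under quantile normalization the uncalled Atp5md in shSMRT over shGFP became 0.125 and the uncalled Cox5a in shSMRT over shNCOR 0.068, both called. Of 3248 values for 171 peak results, counted in the same way, 3002 kept their side of the threshold, 229 lost a call and 17 gained one. The counts of lost settings beside genes are out of 21.

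RNA members lower in shNCOR over shGFP numbered 2, but 0 with TMM, 1 with median-of-ratios scaling, no filter or 6 libraries, and 4 with limma voom, the length trend removed or the replicate block. Over all tested genes, those lower in shNCOR over shGFP ranged from 1993 with 6 libraries to 2259 with the replicate block under these settings. Members higher in shSMRT over shGFP numbered 9 with quantile normalization and 6 with the length trend removed, and those higher in shSMRT over shNCOR 2 in both. Over all tested genes, the same counts were 2598 and 2721 in shSMRT over shGFP, and 2405 and 2653 in shSMRT over shNCOR. The median of complex IV in shSMRT over shNCOR was -0.17 without the filter, which adds unexpressed isoforms. With the length trend removed, the medians in shSMRT over shGFP were -0.11 for complex II and -0.12 for III, and in shSMRT over shNCOR -0.20, -0.18, -0.16 and -0.21 for I to IV. With quantile normalization they were -0.12, -0.0675, -0.11 and -0.0807 for I, II, III and V in shSMRT over shGFP, and -0.20, -0.13, -0.13, -0.19 and -0.14 for I to V in shSMRT over shNCOR; the cause was not tested.

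Leaving out 1 library gave 17 (without shGFP replicate 2) to 28 and 0 to 3 members higher and lower in shNCOR over shGFP, 2 to 3 and 43 to 59 in shSMRT over shGFP, and 1 to 1 and 66 to 73 in shSMRT over shNCOR; the complex V median in shSMRT over shGFP was -0.23 to -0.13, the last without shSMRT replicate 2. For ATAC, these ranges were 2 to 10 and 2 to 6, 2 to 5 and 15 to 25, and 2 to 5 and 27 to 40. In the same order, all 10789 tested genes gave 1545 to 1822 and 1819 to 2128, 2297 to 2717 and 2990 to 3506, and 2202 to 2460 and 2758 to 3137. All 51469 tested peaks gave 1228 to 2457 and 1156 to 2131, 2409 to 3933 and 2710 to 6247, and 2518 to 3662 and 6402 to 8720.

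ATAC peaks lower in shSMRT over shNCOR numbered 42 as deposited, 16 with median-of-ratios scaling and 12 with reads in peaks, quantile normalization or limma voom, and higher ones were 7 with median-of-ratios scaling, 9 with reads in peaks and 2 with 6 libraries. Peaks higher in shSMRT over shGFP were 7 with limma voom, and those higher in shNCOR over shGFP 5 with reads in peaks or quantile normalization. Within 1 kb, 2 and 0 were higher and lower in shNCOR, 0 and 12 in shSMRT over shGFP and 0 higher in shSMRT over shNCOR; within 10 kb these were 4, 0, 1, 14 and 0. The planned edgeR fit on ATAC reads was not run, and limma voom on recovered reads took its place after the data had been seen.

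Over all tested genes and peaks, same-numbered libraries showed little sign of pairing (correlations of deviations from the group mean -0.06 to 0.10). The summed subunit RNA did follow the replicate number, being highest in replicate 1 and lowest in replicate 2 in every group. In complex IV, each shSMRT library lay below the shGFP library of the same number, though the groups overlapped. Pairing can thus not be dismissed for these genes, and the main fit does not model it. With the replicate block, 33 RNA members were higher and 4 lower in shNCOR over shGFP, and 63 were lower in shSMRT over shGFP.

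Of the tested members, all but Ndufb4c averaged at least 5 RPKM, and the ATAC depth of 6.06 to 10.84 M reads limits the precision of peaks. Reads that overlap another gene could not be parted by strand: 10 members overlap an expressed gene on the other strand, among them Ndufs1, Ndufs5, Atp5f1 and Uqcrc2. Many subunit genes also have processed copies elsewhere in the genome, and the sources used here do not give how shared reads were placed.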

Other observations

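Promoter words were set beside the RNA calls of the 66 tested subunits that have a promoter entry, as counts with no test. All 10 subunits with the YY1 word AAGATGGC were lower in shSMRT over shGFP and in shSMRT over shNCOR, among them Ndufs7, against 32 and 47 of the 56 without it. The word was in 7 complex I and 3 complex V promoters, and in 0 of complexes II, III and IV. In complex IV, only 1 of 13 tested subunits was lower in shSMRT over shGFP, so these counts also set complexes apart. The part of complex membership in them was not tested. Of the 9 with the NRF1 word, 4 were lower in shSMRT over shGFP, against 38 of 57 without it. Of the 28 with CCAAT, 14 were higher in shNCOR over shGFP, against 8 of 38 without it, and 15 were lower in shSMRT over shGFP, against 27 of 38. Lower in shSMRT over shGFP were also 9 of 17 with the ETS word, against 33 of 49 without it. The counts were 5 of 8 against 37 of 58 for the ERR word, and 18 of 27 against 24 of 39 for GGGCGG. Of all tested genes, 31.4% were lower in shSMRT over shGFP and 29.0% in shSMRT over shNCOR, and 17.6% were higher in shNCOR over shGFP. The words were looked at together with the RNA values and a subunit can hold several of them. Yy1 RNA was lower in shNCOR over shGFP (-0.12 ± 0.03 SE, limma adjusted p = 0.0194) and had -0.01 ± 0.03 SE, limma adjusted p = 0.765 in shSMRT over shGFP.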
